A study of Mus musculus with 6 samples.

Results

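The mRNAs of the 4 p11 complex genes were followed in ribosome-bound RNA from the cortex of mice labelled p11 KO, after fluoxetine or vehicle. Such levels do not measure the protein complex itself. The genes were S100a10, Anxa2, Ahnak and Hltf. Every probe set with 1 of these names as its single gene symbol was taken, which gave 13 of the 45037 probe sets that are not controls (4 genes of 18193 named by a single symbol). S100a10 had 3 of them, Anxa2 had 3, Ahnak had 4 and Hltf had 3. A probe set was tested where the mean of FLX or of VEH arrays was 50 or more, and 6 of the 13 were: 1 each for S100a10, Anxa2 and Hltf, and 3 for Ahnak. In these 6 both group means were above 50.

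The FLX group drank fluoxetine, a selective serotonin reuptake inhibitor, at 0.167 mg per ml in 1% saccharin, and the VEH group drank 1% saccharin alone, both for 15 to 18 days. All mice of both groups carried the S100a10 bacTRAP transgene (line ES691) and the constitutive p11 KO, on a strain backcrossed 3 to 5 generations on C57BL/6 from FVB. The labels give no age, sex or number of mice behind an array. In bacTRAP mice a bacterial artificial chromosome places a tagged ribosomal protein under the control of a driver gene, here S100a10, so that ribosomes of the cells that use this driver can be purified with their mRNA. Per the series' design text the driver also marks some non-neuronal cells. Each group had 3 arrays, and the values are normalized probe set intensities on a linear scale. A level here is therefore that of RNA purified by way of the S100a10 driver in mice labelled p11 KO. No array used here is of unpurified RNA, so enrichment for the driver's cells was not measured. Fewer cells of a type and less RNA per cell cannot be told apart.

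p11, the product of S100a10, is a small member of the S100 family that does not bind calcium and forms dimers. A p11 dimer joins annexin A2, the membrane-binding product of Anxa2, in a tetramer that helps carry receptors and channels to the cell surface. AHNAK is a giant scaffold protein that binds this tetramer and has been tied to calcium channels at the membrane. SMARCA3, the product of Hltf, is a chromatin remodelling factor and ubiquitin ligase that binds p11 with annexin A2 in neurons, where the complex has been linked to the response to antidepressants.

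Medians over all probe sets lay between 38.6 and 42.0 in the 6 arrays, with 21158 to 21682 probe sets per array at 50 or more. Replicates 1 and 2 of both groups correlated at r = 0.987 to 0.995 across tested probe sets, while the replicate 3 arrays of both groups correlated with the others at 0.867 to 0.916 and with each other at 0.973. These correlations are across probe sets, which are not independent replicates. The tested members are therefore described array by array, and their FLX against VEH differences are also given without the replicate 3 arrays. Of 10 genes listed for cortical projection neurons, 8 were tested, at a summed intensity of 73971 to 93588 in FLX and 73143 to 88891 in VEH arrays. The largest parts came from Snap25 and Rbfox3, named with their values in view. Snap25 had 47353 to 50610 in FLX and 43142 to 47686 in VEH arrays, and Rbfox3 had 16637 to 21246 and 15396 to 27966. Both are genes of neurons in general, so the sum does not tell projection neurons from other neurons. Camk2a, a kinase of excitatory neurons, had at least 1719 in FLX and at least 1349 in VEH arrays, whereas Slc17a7, the vesicular glutamate transporter of cortical projection neurons, stayed at 242 or less in both groups. The remaining tested genes of this list, named with their values in view, were well above the minimum. Neurod6 had at least 4094 in FLX and at least 3536 in VEH arrays, and Tbr1 at least 1464 and 1179. Bcl11b had at least 1549 in FLX and 1228 in VEH arrays, and Fezf2 at least 912 and 793. Of 16 leptomeningeal and fibroblast markers all 16 were tested, at a summed intensity of 5658 to 125150 in FLX and 12492 to 116615 in VEH arrays.

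Promoter sequence is shown for Anxa2, Ahnak and Hltf, the members for which it was available, and not for S100a10. Across arrays S100a10 moved with Anxa2 (r = 0.974) and Ahnak (r = 0.954), each by its brightest probe set, while Hltf moved the other way. Each run is the 250 bases before the annotated start, 5′ to 3′ on the plus strand, from RefSeq on GRCm38.p6. The table held 3 of the 4 genes, and for Hltf the first of 2 starts is shown. Capitals mark matches, on either strand, to any of 8 short motifs. These were TATAAA for the TATA box, CCAAT for the box of that name, GGGCGG as bound by Sp1, the cyclic AMP element TGACGTCA (CRE), TGANTCA as bound by AP-1, the interferon-type element TTCNNNGAA bound by STAT factors, CATTCC as bound by TEAD factors, and the E-box written CACGTG.
Anxa2, chr9:69453433-69453682: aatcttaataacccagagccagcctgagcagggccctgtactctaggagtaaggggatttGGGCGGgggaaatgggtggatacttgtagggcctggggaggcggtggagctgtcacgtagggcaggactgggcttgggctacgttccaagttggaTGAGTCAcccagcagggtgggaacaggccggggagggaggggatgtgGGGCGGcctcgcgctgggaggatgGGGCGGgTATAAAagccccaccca
Ahnak, chr19:8989034-8989283: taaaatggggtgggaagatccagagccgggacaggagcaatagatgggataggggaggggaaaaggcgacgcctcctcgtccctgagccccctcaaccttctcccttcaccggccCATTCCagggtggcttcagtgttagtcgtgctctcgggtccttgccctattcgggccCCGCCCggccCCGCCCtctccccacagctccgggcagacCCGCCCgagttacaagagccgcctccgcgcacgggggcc
Hltf, chr3:20057561-20057810: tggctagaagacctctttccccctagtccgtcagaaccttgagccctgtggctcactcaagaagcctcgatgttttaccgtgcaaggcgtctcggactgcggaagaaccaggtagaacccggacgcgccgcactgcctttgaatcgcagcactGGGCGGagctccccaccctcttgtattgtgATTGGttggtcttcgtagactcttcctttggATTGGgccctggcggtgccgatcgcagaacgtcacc

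The Anxa2 run held 3 matches to the Sp1 motif, 1 to the AP-1 motif, beginning 95 bases before the start, and a TATA box beginning 17 bases before it. The last Sp1 match lies just before the TATA box without overlap. The Ahnak run also held 3 Sp1 matches, with 1 TEAD match and no TATA box. The Hltf run held 1 Sp1 match and 2 CCAAT boxes. Among all 32851 promoter entries of the table, over the same 250 bases, 32.7% held the Sp1 motif, 33.8% a CCAAT box, 12.4% a TATA box, 12.6% the TEAD motif and 6.75% the AP-1 motif. No match to the CRE, STAT or E-box motif was found in these 3 windows, against 1.55%, 7.02% and 6.02% of all entries. A match of letters is a description and does not show binding.

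S100a10, the gene deleted in these mice and the driver of the transgene, was measured well above 50 by 1 probe set, 1456642_x_at. In FLX arrays its intensity was 2222, 2037 and 349, in order of replicate number, against 3111, 2248 and 643 in VEH arrays. The FLX array was the lower of each equal-numbered pair, but the groups overlapped, because both replicate 3 arrays were far below the rest. The other probe sets of the gene lay between 4.98 and 49.4 in all arrays, below the minimum for a test. Of these, 1416762_at had 44.5, 44.1 and 41.9 in FLX and 49.4, 42.8 and 34.0 in VEH arrays. It was lower in replicate 3 by only 1.06-fold in FLX and 1.35-fold in VEH. The log2 difference, FLX minus VEH, was 0.06 for 1416762_at and 0.22 for 1439348_at, and each was lower in FLX in 1 of 3 pairs. A probe set of the x_at type can match other transcripts. No p11-expressing array was analysed here, and the sources used here do not tell whether these probes lie in the deleted part, so the genotype cannot be checked from them.

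Anxa2, the annexin partner, was measured by 1419091_a_at. FLX arrays had 7922, 10447 and 886, in order of replicate number, and VEH arrays had 11480, 10966 and 1102. As for S100a10, the FLX array was lower in 3 of 3 pairs and the groups overlapped. Its other 2 probe sets stayed at 25.7 or less. Of these, 1437692_x_at had 22.5, 24.7 and 8.42 in FLX and 25.3, 25.7 and 10.7 in VEH arrays, lower in replicate 3 by 2.80-fold in FLX and 2.38-fold in VEH, at values below the minimum for a test.

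Ahnak, the scaffold, was tested with 3 probe sets that differed in their order of arrays. The brightest, 1452217_at, had 1610, 3145 and 163 in FLX arrays against 2461, 2805 and 199 in VEH arrays. Here FLX was lower for replicates 1 and 3 and higher for replicate 2. Probe set 1428057_a_at had 94.3, 101 and 10.7 in FLX and 155, 145 and 29.4 in VEH arrays, and 1428058_at had 82.0, 80.9 and 26.7 in FLX and 101, 103 and 64.3 in VEH arrays. In both of these the FLX array was lower in 3 of 3 pairs, at values near the minimum of 50 and, in replicate 3, mostly below it. The fourth probe set of the gene, 1429866_at, stayed between 6.17 and 7.52.

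Hltf, the chromatin remodelling partner, was tested with 1450889_at. It had 650, 654 and 1063 in FLX arrays and 668, 710 and 888 in VEH arrays. Replicate 3 was the highest array of each group, opposite to the other members, and FLX was lower in replicates 1 and 2 but higher in replicate 3. The other 2 probe sets of Hltf were at 33.9 or less in all arrays, below the minimum for a test. Of these, 1425996_a_at was higher in FLX in 3 of 3 pairs, by 0.35, 0.17 and 0.04 on the log2 scale, and 1451901_at in 2 of 3.

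**Figure D1:**
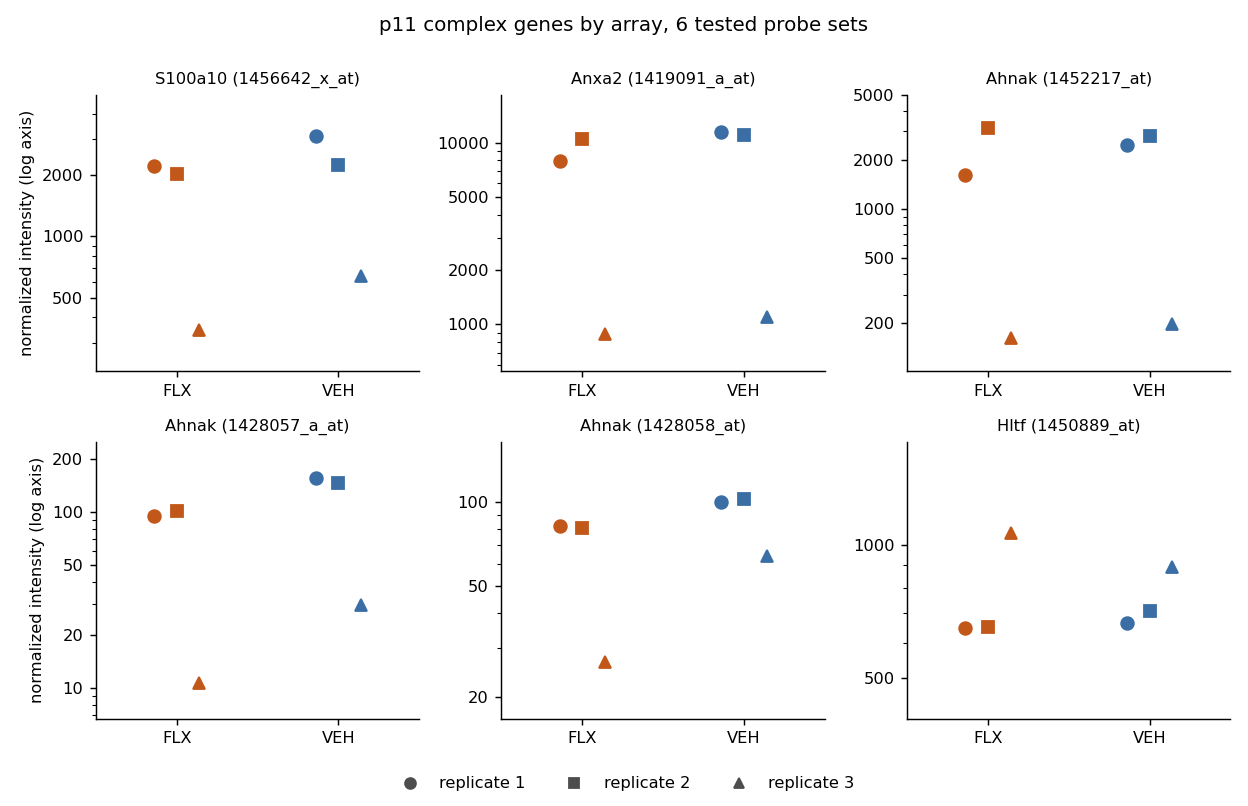
Normalized intensity (log axis) of the 6 tested probe sets in each array, with FLX on the left and VEH on the right and a marker for each replicate number. Replicate 3 is the lowest array of both groups for S100a10, Anxa2 and Ahnak, at 349 in FLX and 643 in VEH for S100a10, and the highest for Hltf, at 1063 in FLX and 888 in VEH.

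No member passed the test between FLX and VEH. By limma with treatment as the only term, 0 of the 6 tested probe sets had an adjusted p under 0.05, and 0 of all 22200 probe sets tested did (0%), with 83 (0.374%) at an unadjusted p under 0.05, none of them a member. S100a10 averaged 1536 ± 1032 in FLX and 2001 ± 1253 in VEH arrays (SD, n = 3 each), a log2 difference of -0.50 (SE 0.92, adjusted p = 1.00). Anxa2 averaged 6418 ± 4955 in FLX and 7849 ± 5849 in VEH arrays, a log2 difference of -0.31 (SE 1.29). Hltf averaged 789 ± 237 in FLX and 756 ± 117 in VEH arrays, a log2 difference of 0.03 (SE 0.27). The Ahnak differences were -0.24 (SE 1.46) for 1452217_at, -0.90 (SE 1.08) for 1428057_a_at and -0.64 (SE 0.50) for 1428058_at. Every 95% interval included 0, and the adjusted p was 1.00 for all 6 members. The interval was widest for the brightest Ahnak probe set, from -3.81 to 3.32, and narrowest for Hltf, from -0.63 to 0.70.

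Differences between arrays of equal replicate number spread less than the log2 levels of either group did, except for Ahnak by 1428058_at, where they spread more than the VEH levels. S100a10 differed by -0.49, -0.14 and -0.88 in pairs 1 to 3, and Anxa2 by -0.54, -0.07 and -0.32, all log2 FLX minus VEH. For Ahnak, 1428057_a_at gave -0.72, -0.52 and -1.46 and 1428058_at gave -0.30, -0.35 and -1.27, while 1452217_at gave -0.61, 0.16 and -0.29. Hltf gave -0.04, -0.12 and 0.26. The groups overlapped for all 6 tested members, while 1.79% of all tested probe sets had every FLX array below every VEH array and 2.55% had every one above. The difference was negative in 5 of 6 members and in 42.8% of all tested probe sets. It was also negative in 13 of 16 leptomeningeal and fibroblast markers (median -0.35) and in 5 of 5 tested pericyte and smooth muscle markers (median -0.62). The leptomeningeal and fibroblast medians in pairs 1 to 3 were -0.67, 0.15 and -0.46, and 3 of 16 genes were lower in FLX in all 3 pairs. The part of these cell types in the members' differences was not tested. Of the 6 members, 4 were lower in FLX in all 3 pairs and 0 were higher in all 3. Over all tested probe sets, 13.6% were lower and 19.6% higher in all 3 pairs. The 4 share arrays, and 2 of them are of 1 gene, so they are not 4 separate observations.

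With the replicate number as a term beside treatment, the standard error of the S100a10 difference was 0.19, and its unadjusted p was 0.0316 in limma. Ahnak had an unadjusted p of 0.00364 (SE 0.21) by 1428057_a_at and of 0.0238 (SE 0.23) by 1428058_at, but of 0.245 (SE 0.19) by the brightest probe set. Anxa2 had 0.111 (SE 0.17) and Hltf 0.846 (SE 0.17). The 95% interval in this fit ran from -0.95 to -0.06 for S100a10, from -0.70 to 0.09 for Anxa2, from -0.70 to 0.21 for the brightest Ahnak probe set and from -0.35 to 0.42 for Hltf. Thus 3 of 6 members were lower in FLX at an unadjusted p under 0.05, as were 4.01% of all tested probe sets. After adjustment 0 members and 0 of the 22200 probe sets (0%) passed in this fit, with an adjusted p of 0.623 to 0.961 for the members. The arrays of equal number are paired by how they deviate together, which rests mainly on replicate 3, and no label explains the numbering.

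**Figure D2:**
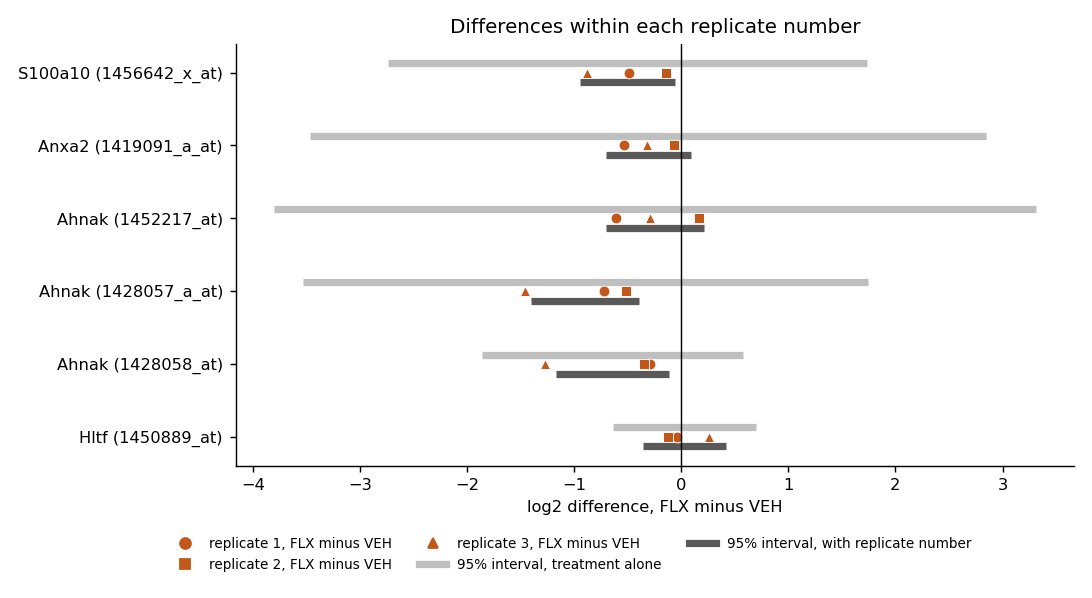
Log2 difference, FLX minus VEH, of each tested probe set: points are the 3 pairs of equal replicate number, and bars are limma's 95% intervals with treatment alone (light) and with the replicate number as a further term (dark). For S100a10 the pairs lie at -0.49, -0.14 and -0.88, inside an interval of -2.74 to 1.73 with treatment alone and one of -0.95 to -0.06 with the replicate number.

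The replicate 3 arrays stood further from replicates 1 and 2 than FLX stood from VEH for all 6 tested members in both groups, which is a description with no test. Compared with the mean of replicates 1 and 2 on the log2 scale, S100a10 was 6.10-fold lower in the FLX replicate 3 array and 4.12-fold lower in the VEH one. Anxa2 was lower by 10.3-fold in FLX and 10.2-fold in VEH, and Ahnak, by 1452217_at, by 13.8-fold in FLX and 13.2-fold in VEH. The remaining Ahnak probe sets were lower by 9.12-fold and 3.06-fold in FLX and by 5.09-fold and 1.59-fold in VEH. Hltf was 1.63-fold higher in FLX and 1.29-fold higher in VEH. Of the 6 members, 4 were at least 2-fold lower in replicate 3 in both groups, as were 14.7% of all tested probe sets, and 5.65% were at least 2-fold higher in both. The median of all tested probe sets in replicate 3 was 0.10 in FLX and -0.03 in VEH arrays on the same log2 scale.

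Without both replicate 3 arrays, FLX lay below VEH without overlap in 5 of 6 members, the exception being the brightest Ahnak probe set, and 19.2% of all tested probe sets did the same. The log2 difference was then -0.31 for S100a10, -0.30 for Anxa2, -0.22, -0.62 and -0.32 for Ahnak (in the order above) and -0.08 for Hltf, where the direction turned. By limma 0 of 21994 probe sets (0%) passed in this comparison of 2 arrays against 2, with 1339 at an unadjusted p under 0.05. Among them were 2 members, Ahnak by 1428057_a_at (unadjusted p = 0.00477) and by 1428058_at (unadjusted p = 0.0475), and 3.79% of all probe sets were lower in FLX at that level. With the replicate number as a term as well, 1 of 6 members was lower at an unadjusted p under 0.05, Ahnak by 1428057_a_at (0.00534), as were 5.43% of all probe sets in that fit. S100a10 then had an unadjusted p of 0.0891, Anxa2 of 0.122 and Ahnak, by 1428058_at, of 0.0578. Leaving out a single replicate 3 array, which leaves the other unmatched, gave log2 differences of 0.37 for S100a10 and 0.81 for Anxa2 without the FLX array, and of -1.18 and -1.42 without the VEH array.

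Markers of some other cell types, though not every gene of a list, moved with S100a10, Anxa2 and Ahnak across the arrays. Leptomeningeal and fibroblast markers, which label the brain's outer membranes, were at least 2-fold lower in replicate 3 in both groups in 15 of 16 genes, and their log2 median was -3.66 for FLX and -3.37 for VEH. Their summed intensity was 72859, 125150 and 5658 in FLX and 113492, 116615 and 12492 in VEH arrays, in order of replicate number. From the lowest to the highest array, this is the order of the brightest Ahnak probe set as well. Dcn, the matrix proteoglycan decorin, had 2612, 5793 and 339 in FLX and 3781, 5224 and 337 in VEH arrays, and Lum, the related lumican, was below 50 in replicate 3 of both groups. No marker of this list was at 0.

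Pericyte and smooth muscle markers had 5 of 9 genes tested, with replicate 3 medians of -2.01 for FLX and -2.47 for VEH and 3 of 5 at least 2-fold lower in both. Their summed intensity was 4211, 5127 and 2090 in FLX and 8430, 6005 and 2183 in VEH arrays, which is the order of Anxa2 from lowest to highest. Acta2, smooth muscle actin, had 1557, 1377 and 363 in FLX and 3616, 2017 and 486 in VEH arrays, so the FLX array was lower in 3 of 3 pairs, which held for 2 of the 5 tested genes. Rgs5, a pericyte regulator of G protein signalling named with its values in view, was instead higher in replicate 3, by 1.96 in FLX and 1.55 in VEH on the log2 scale, and gave pair differences of 0.06, -0.44 and 0.23. Endothelial markers had 5 of 10 genes tested, at a summed intensity of 365 to 643 in FLX and 329 to 757 in VEH arrays. Their replicate 3 medians were -0.59 for FLX and -1.89 for VEH, with 5 of 5 lower in both groups. Pecam1, an endothelial adhesion molecule, was below the minimum in all arrays. Astrocyte markers summed to 13992 to 39960 in FLX and 10667 to 36670 in VEH arrays over 9 genes. Their replicate 3 medians were -0.59 for FLX and -0.70 for VEH, with 5 of 9 lower in both groups. Gfap, Aldh1l1 and Fgfr3, named with their values in view, were instead higher in replicate 3 of both groups, Gfap by 2.06 in FLX and 2.06 in VEH. Microglia and macrophage markers summed to 2653 to 4618 in FLX and 1992 to 4585 in VEH arrays over 9 of 10. Their replicate 3 medians were -0.58 for FLX and -1.86 for VEH, with 7 of 9 lower in both, while Cx3cr1 was higher, by 0.33 in FLX and 0.13 in VEH. The medians of oligodendrocyte and interneuron markers in replicate 3 had the sign of Hltf, at 1.22 in FLX and 0.60 in VEH for oligodendrocytes and at 0.81 in FLX and 0.61 in VEH for interneurons. For projection neuron markers the replicate 3 median was positive too, 0.46 (FLX) and 0.93 (VEH). Not every gene followed its median. Lower in replicate 3 of both groups were 2 of 7 oligodendrocyte markers (Cldn11 and Mag) and 1 of 8 interneuron markers (Slc32a1). The same held for 1 of 8 projection neuron markers, Slc17a7, at -0.48 (FLX) and -0.76 (VEH). Neurod6 and Snap25 of that list were lower in VEH only, at -0.46 and -0.14. These exceptions are named with their values in view. Cldn11, a tight junction protein of myelin, differed by -2.81 in FLX and -2.57 in VEH. Whether these cell types have a part in the members' values was not tested.

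**Figure D3:**
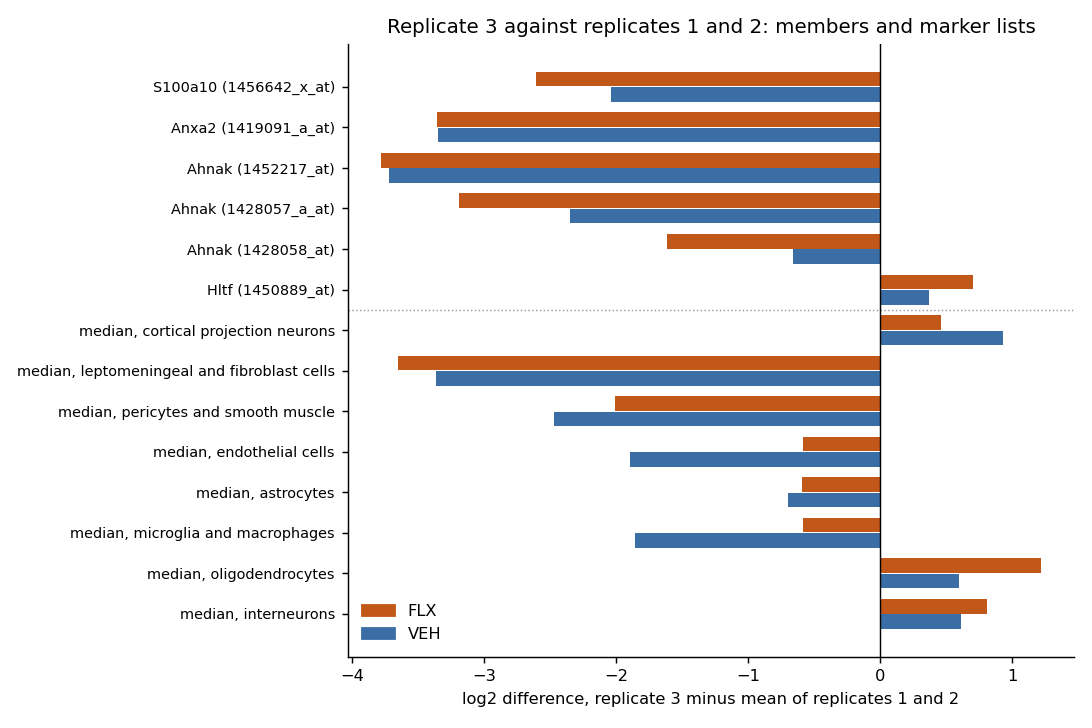
Log2 difference of replicate 3 from the mean of replicates 1 and 2 within FLX (upper bar of each row) and VEH (lower bar), for the 6 tested probe sets and for the median of each of 8 marker lists. S100a10, Anxa2 and Ahnak run the same way as the median of the leptomeningeal and fibroblast markers (-3.66 in FLX and -3.37 in VEH). The medians of the pericyte and smooth muscle, endothelial, astrocyte, and microglia and macrophage markers are negative in both groups as well. Hltf runs the same way as the medians of the neuronal and oligodendrocyte markers.

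**Figure D4:**
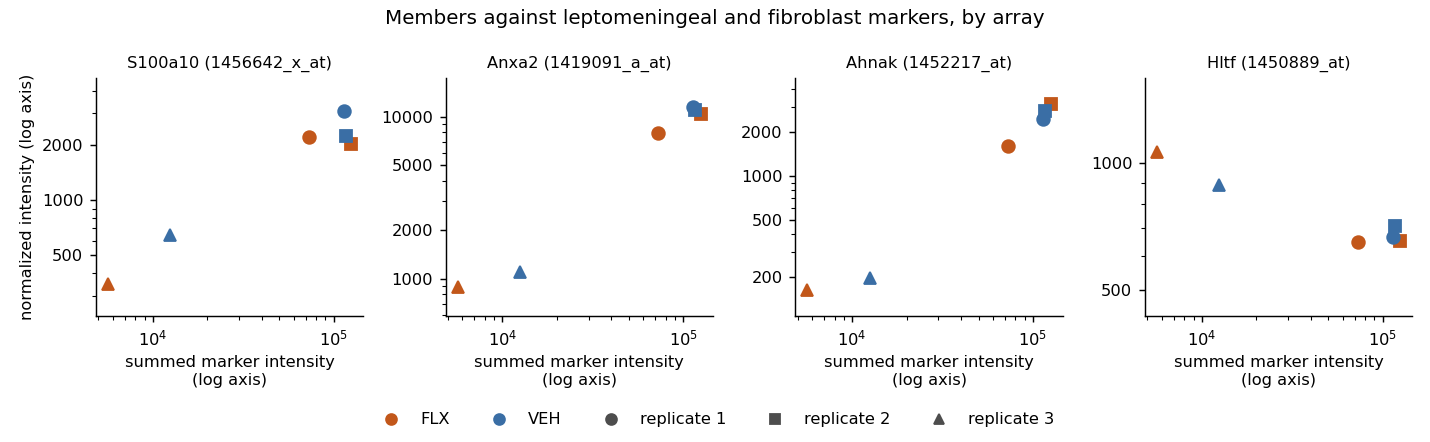
Normalized intensity of the brightest probe set of each member against the summed intensity of 16 leptomeningeal and fibroblast markers, both on log axes, with 1 point for each of the 6 arrays. The replicate 3 arrays stand apart at marker sums of 5658 in FLX and 12492 in VEH, where S100a10, Anxa2 and Ahnak are lowest and Hltf is highest.

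Many genes shared these patterns across the 6 arrays, as a description that rests on the gap between replicate 3 and the rest. Among 12213 other genes, each by its brightest tested probe set, 1707 had a Pearson r above 0.95 with Anxa2, 1697 with Ahnak, 856 with S100a10 and 495 with Hltf. The genes most like S100a10 were Fanci, 4930526I15Rik and Mrvi1. Fanci, a DNA repair gene, had 148, 147 and 32.2 in FLX and 200.1, 149 and 51.1 in VEH arrays, with pair differences of -0.44, -0.02 and -0.67. The genes most like Anxa2 were Anxa1, Qprt, an enzyme of NAD synthesis, and Gstt1, a glutathione transferase. Anxa1, another annexin, had 8777, 11586 and 953 in FLX and 13636, 12414 and 1192 in VEH arrays. Ahnak was most like Itm2a, Bmp6 and Tspan8, and Bmp6, a bone morphogenetic protein, had 1912, 3882 and 148 in FLX and 3119, 3553 and 199.7 in VEH arrays. Hltf was most like Pex5l, Grb10 and Zmat1, and Grb10, an adaptor of insulin signalling, had 1273, 1291 and 2152 in FLX and 1363, 1394 and 1801 in VEH arrays.

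Known partners and regulators of the complex were listed in 5 groups, and 0 of their 33 tested genes passed limma's threshold in either direction, with or without the replicate number. The median log2 difference over all tested probe sets was 0.04. The receptors and channels that p11 helps to the surface had a median of 0.20 over 5 tested of 9 genes, with 3 positive and 2 negative. Grm5, the metabotropic glutamate receptor 5, had 1848, 1659 and 692 in FLX and 1235, 1430 and 361 in VEH arrays, a log2 difference of 0.58 (SE 0.65), and was higher in FLX in 3 of 3 pairs. Trpv6, an epithelial calcium channel, had 62.7, 52.5 and 65.2 in FLX and 45.4, 47.6 and 61.1 in VEH arrays, a log2 difference of 0.23 (SE 0.21). Htr1b, a serotonin receptor known to bind p11 and picked with its values in view, had 270.2, 324 and 186 in FLX and 338, 365 and 152 in VEH arrays, and Htr4, another such receptor, stayed at 32.0 or less.

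The plasminogen system, which the p11-annexin A2 tetramer helps to activate at the cell surface, had a median of 0.06 over 4 tested of 8 genes. Ctsb, the protease cathepsin B, had 9122, 10855 and 2654 in FLX and 7443, 10982 and 1735 in VEH arrays, and Plaur, the urokinase receptor, lay between 52.9 and 61.3 in all 6. Plat (tissue plasminogen activator), picked with its values in view, had 729, 1324 and 220 in FLX and 1011, 1333 and 145 in VEH arrays. It followed Anxa2 in its low replicate 3 arrays, but not in that pair's direction.

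AHNAK partners and calcium channel subunits had a median of 0.10 over 7 tested of 10 genes, with 6 positive. Cacna1c, the pore of an L-type channel, had 322, 326 and 168 in FLX and 206, 235 and 203 in VEH arrays, a log2 difference of 0.28 (SE 0.31). Cacnb2, a beta subunit, had 248.6, 217 and 468 in FLX and 218, 204 and 292 in VEH arrays, a difference of 0.32 (SE 0.35). Ahnak2 (the relative of Ahnak), picked with its values in view, had 407, 785 and 24.5 in FLX and 542, 512 and 46.9 in VEH arrays. Its replicate 3 arrays were the lowest of both groups, as for Ahnak, and FLX was lower in replicates 1 and 3 and higher in replicate 2, as in the brightest Ahnak probe set.

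Genes that work with HLTF in DNA damage tolerance or gene control had a median of 0.19 over 8 of 8 genes. Ube2n, a ubiquitin-conjugating enzyme, had 4003, 3558 and 6597 in FLX and 3038, 3455 and 4079 in VEH arrays, higher in FLX in 3 of 3 pairs (log2 difference 0.38, SE 0.30). Rad18, a ubiquitin ligase of the same pathway, had 96.3, 95.6 and 161 in FLX and 87.4, 62.7 and 121 in VEH arrays, also higher in 3 of 3 pairs (0.39, SE 0.34). Known regulators of p11 had a median of 0.15 over 9 tested of 11 genes. Bdnf, the neurotrophin that raises p11, had 285, 288 and 260.2 in FLX and 205, 341 and 160.2 in VEH arrays, so that FLX was higher in replicates 1 and 3 and lower in replicate 2. Nr3c1, the glucocorticoid receptor, had 3553, 3364 and 5102 in FLX and 4246, 3670 and 5999 in VEH arrays, a log2 difference of -0.21 (SE 0.28), lower in FLX in 3 of 3 pairs.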

How the data were processed

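Ribosome-bound RNA of 3 FLX and 3 VEH samples was, per the labels' protocols, extracted, DNase-treated and amplified in 2 cycles from 15 ng for Affymetrix arrays. The deposited table holds 1 column of linear probe set intensity per array, made by the authors with GCRMA per the submitters' processing notes, which state no version or settings. Values ran from 1.60 to 76587. Of 45101 probe sets, 64 controls were left out, and genes were named from platform annotation where a probe set had 1 symbol (34945 probe sets, 0 symbols changed by a newer table). The authors advise a probe set list from their paper, which was not used here.

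FLX minus VEH was fitted in limma 3.58.1 (R 4.3.3) to log2 intensity with no pseudocount, two-sided, where a group mean was 50 or more (22200 probe sets), with Benjamini-Hochberg adjustment over all of them at 0.05. The fit was also run on simulated data, whose outcome is not given here and on which no statement rests. Each gene of a list was taken by its brightest tested probe set. The number of arrays limits the precision, and p-values measure the spread between arrays labelled as biological replicates. With treatment alone this spread includes the gap between replicate 3 and the other arrays, which limits the precision as well. For S100a10 the standard error was 0.92 in that fit and 0.19 with the replicate number as a term.

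The text names all members, the 2 genes of each partner list with the smallest unadjusted p, the 3 genes most correlated with each member and at most 2 markers per list. Genes outside this rule are marked. Members and lists were chosen with earlier results of these data known. Some listed genes had no probe set with a single symbol and were not analysed here.

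Equal replicate numbers deviated together from their group means at r = 0.70, 0.84 and 0.87 across probe sets, above the limit of 0.1 set for pairing. The VEH replicate 1 array correlated better with FLX replicate 2 (0.76) than with FLX replicate 1, so the pairing comes mainly from replicate 3. FLX replicate 1 with VEH replicate 2 (0.64) was above that limit as well. The limit therefore cannot tell which arrays of replicates 1 and 2 belong together. Alternatives were the replicate number as a block, filters, a pseudocount of 16, normalization, array weights, a variance trend and arrays left out. Figures were drawn with matplotlib 3.10.9.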

Additional observations from a re-analysis of the deposited data

How the results depend on the processing

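Under all 16 alternatives 0 probe sets passed the threshold in limma, with 48 to 6767 at an unadjusted p under 0.05, the most with array weights, whose estimation stopped before convergence. With the replicate block the S100a10 difference stayed at -0.50 and no member's call changed (lowest adjusted p = 0.623). The block without both replicate 3 arrays was added after seeing the data. Leaving out 1 array at a time, the log2 difference ran from -1.18 to 0.37 for S100a10, from -1.42 to 0.81 for Anxa2, from -1.49 to 1.02, from -1.68 to 0.17 and from -0.91 to -0.10 for the 3 Ahnak probe sets in the order of the text, and from -0.20 to 0.16 for Hltf. Signs turned without FLX replicate 3 for every member but 1428058_at, and without VEH replicate 1 or VEH replicate 2 for Anxa2 (0.27 and 0.23), for the brightest Ahnak probe set (0.33 and 0.42) and for Hltf (-0.05 and -0.0055). Leaving out 1 array of a pair leaves its replicate number unmatched. The Hltf difference, near 0, also turned to -0.0071 with quantile normalization, to -0.093 with array weights and to -0.079 without both replicate 3 arrays, with or without the block. Probe set 1428058_at was not tested at the stricter minimum of 100. The medians of the 5 partner lists, with 1 array left out, stayed above 0 for the p11 clients, the AHNAK partners and the HLTF relatives. They ran from -0.51 to 0.57 for the plasminogen system and from -0.13 to 0.37 for the regulators of p11. Signal limits the 7 dim member probe sets, at 49.4 or less in all arrays.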
